A study of Homo sapiens with 6 samples.

Results

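MYC, which encodes the transcription factor c-Myc, and FBXW7, which encodes a substrate adaptor that marks c-Myc for destruction, moved in opposite directions in OGT-depleted HT-29 cells. MYC mRNA fell to 47.9% of its level in control cells, while FBXW7 mRNA rose 2.47-fold. By quantitative PCR after OGT depletion in HT-29 cells, the study itself reported no significant decrease of c-Myc mRNA. It did report a significant decrease of c-Myc protein. Why RNA-seq and quantitative PCR differ for MYC was not tested. The 2 genes were taken by symbol from a table of 5681 genes measured by RNA-seq in 6 libraries. HT-29 is a human colorectal adenocarcinoma line, and OGT (O-GlcNAc transferase) is the enzyme that attaches single N-acetylglucosamine residues to nuclear and cytoplasmic proteins. In 3 libraries (Scramble, numbered 1 to 3) the cells carried a scrambled control hairpin, and in the other 3 (shOGT, numbered 4 to 6) they carried a short hairpin RNA against OGT. As far as the labels say, both groups are the same line and differ in the hairpin alone. The study lists 2 OGT hairpins without naming the one used here, so a single hairpin may stand behind all shOGT libraries. The labels do not say whether the libraries of a group came from separate cultures, so p-values measure only the spread between these samples.

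c-Myc pairs with MAX and binds the DNA sequence CACGTG, the canonical E-box, near genes for ribosome assembly, nucleotide and amino acid supply and the cell cycle. The protein is short-lived. After phosphorylation of a short motif (the phosphodegron) by GSK3 and related kinases, FBXW7 binds it and presents it to the SCF complex (SKP1, a cullin and a RING protein), which attaches ubiquitin so that the proteasome can degrade it. FBXW7 is a frequently mutated tumour suppressor of the colon and also handles cyclin E, Notch, JUN and SREBP. RNA-seq measures the mRNA of these genes and says nothing of the amount, modification or degradation of their proteins.

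The table held only genes that the authors had called changed, with an absolute log2 fold change of at least 1 and an adjusted p under 0.05, so every test below describes genes already selected on this contrast. Values are normalized counts, reads divided by 1 size factor per library, and the reads on the table's genes numbered 4145921 to 4504303 in Scramble and 3302558 to 3471647 in shOGT libraries. A gene was called changed where limma gave an absolute log2 fold change over 1 and an adjusted p under 0.05. By that rule 99.4% of the 5671 genes tested were called, 52.2% higher and 47.2% lower in shOGT, so a count of called members carries no information by itself and the split between directions is what the lists below add. OGT itself stood at 9628, 11638 and 11619 normalized counts in Scramble and at 484, 621 and 537 in shOGT libraries, 4.99% of the control level. Of 13 colon epithelial markers 5 were in the table (KRT20, KRT19 and CDH17 higher, VIL1 and LGALS4 lower), and all 5 were detected in every library. The fibroblast marker PDGFRB was the only one of 6 in the table, with at most 2 reads in a Scramble library and 10 to 16 in shOGT. LYZ was the only one of 5 leukocyte markers in the table (log2 fold change 1.01), and it had at least 8605 reads in every library, Scramble included. Whether changes in these markers bear on MYC or FBXW7 was not tested.

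MYC was an abundant transcript in control cells, at 4476, 5101 and 4809 normalized counts in Scramble libraries 1, 2 and 3. In shOGT libraries 4, 5 and 6 it stood at 2251, 1970 and 2665. Every shOGT library lay below every Scramble library. The selected table makes this common, since groups did not overlap for 5641 of the 5671 genes tested. The group means were 4796 ± 313 and 2295 ± 350 (SD, n = 3 each), and the spread relative to the mean was wider after OGT depletion (15.2%) than in controls (6.52%). The log2 fold change was -1.07 (SE 0.11, 95% confidence interval -1.30 to -0.84, limma adjusted p = 2.64e-07). An exact two-sided permutation test of 3 against 3 libraries gave p = 0.1, the smallest this design allows. The values rest on 5047, 5661 and 5226 reads in Scramble and 2139, 1839 and 2341 in shOGT libraries. In bulk RNA, less transcript per cell and fewer cells that make it cannot be told apart.

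The size of the MYC change depended on how the libraries were scaled and on library shOGT 5, whose MYC value was the lowest. Under rescaling by a median of ratios, taken over the table, which shifted the median gene by 0.71 on the log2 scale, MYC fell by 0.35 on the log2 scale. Scaled to summed reads it fell by 0.99, and without library shOGT 5 it fell by 0.97, in both cases just short of the fold threshold of 1. Its adjusted p ranged from 3.89e-20 to 0.0141 over all alternatives. MYC was among the smaller changes in the table, since 2461 of the 2691 genes with a negative change (91.5%) moved further. MYC was nevertheless lower in shOGT under every setting tried.

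MYC (ENSG00000136997) lies on the plus strand of chromosome 8 in GRCh38, at chr8:127735434-127741434. GENCODE 29 gives it 9 transcripts, all coding, whose merged exons form 3 blocks with 3001 bases. None of those exon bases overlaps another annotated gene. None of its 3214 transcript stretches of 75 bases occurs in a transcript of another gene, so reads of that length are not shared with a near-identical copy.

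FBXW7 was a moderately expressed transcript, at 480, 554 and 511 normalized counts in Scramble libraries 1, 2 and 3. It stood at 1155, 1343 and 1317 in shOGT libraries 4, 5 and 6. All shOGT libraries were above all Scramble libraries, and the lowest of them was more than 2 times the highest control. A lack of overlap held for 5641 of the 5671 genes tested. The means were 515 ± 37.4 and 1272 ± 102 (SD, n = 3 each), with similar relative spread in both groups (7.26% and 8.03%). The log2 fold change was 1.30 (SE 0.10, 95% confidence interval 1.09 to 1.52, limma adjusted p = 2.14e-08, exact permutation p = 0.1). Reads numbered 541, 615 and 555 in Scramble and 1097, 1254 and 1157 in shOGT libraries. FBXW7 was called higher under every setting, with log2 fold changes from 1.25 (without Scramble 1) to 1.37 (without shOGT 4) over left-out libraries and 2.02 under the median-of-ratios rescaling. Of 2980 genes with a positive change, 2269 (76.1%) rose by more.

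**Figure D1:**
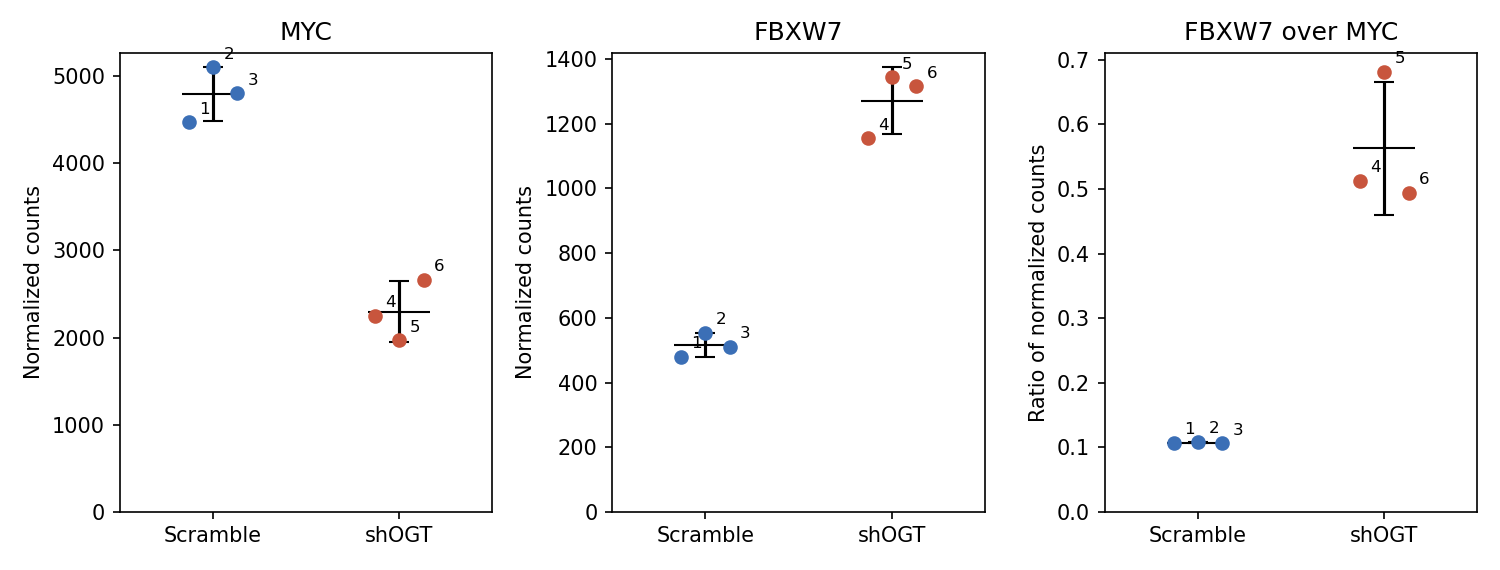
Normalized counts of MYC (left) and FBXW7 (middle) and the FBXW7 to MYC ratio (right) in each library, numbered as in the labels, with the group mean as a horizontal bar and the SD as an error bar (n = 3 each). MYC fell from a mean of 4796 to 2295 while FBXW7 rose from 515 to 1272, and shOGT 5 combined the lowest MYC value with the highest ratio. Groups did not overlap for either gene, which was so for 5641 of the 5671 genes tested.

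The ratio of FBXW7 to MYC within a library does not depend on how libraries are scaled to each other. It was 0.107, 0.109 and 0.106 in Scramble libraries and 0.513, 0.682 and 0.494 in shOGT libraries. The control values were nearly identical (mean 0.107 ± 0.00123), and the shOGT values were spread (mean 0.563 ± 0.103). The mean log2 ratio was 2.38 higher in shOGT (SE 0.15), a 5.19-fold difference, with an exact two-sided permutation p = 0.1, the smallest that 3 against 3 allows. Library shOGT 5 had both the lowest MYC and the highest FBXW7 value, and thereby the highest ratio.

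Per kilobase of merged exon, mean levels were 1598 ± 104 normalized counts for MYC and 46.4 ± 3.37 for FBXW7 in Scramble, and 765 ± 116 and 115 ± 9.20 in shOGT (SD, n = 3 each). The order was therefore MYC in Scramble, MYC in shOGT, FBXW7 in shOGT and FBXW7 in Scramble, and no neighbours in that order overlapped. By level per kilobase, MYC moved from rank 93 to rank 208 among the table's genes and FBXW7 from rank 2462 to rank 1276. FBXW7 is divided by the union of many isoforms, so its level per kilobase is understated where a shorter isoform dominates.

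**Figure D2:**
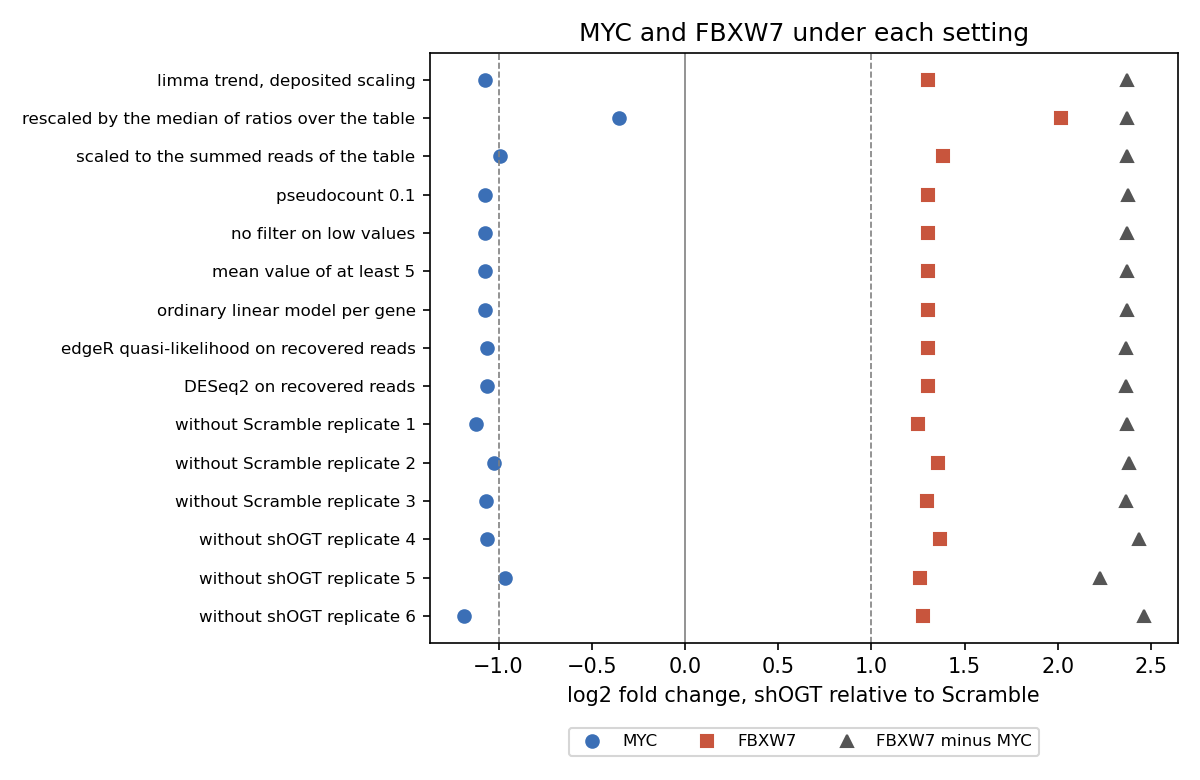
log2 fold change of MYC (circles) and FBXW7 (squares), shOGT relative to Scramble, and their difference (triangles) under each scaling, filter, test and left-out library, with dashed lines at -1 and 1. FBXW7 stayed above 1 throughout, MYC ranged from -1.18 to -0.35, and the rescalings moved both genes together and left their difference in place.

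FBXW7 (ENSG00000109670) lies on the minus strand at chr4:152320544-152536063 in GRCh38, a span of 215520 bases. GENCODE 29 gives 17 transcripts, 11 of them coding, from 14 start positions, with 16 merged exon blocks and 11095 exon bases. The antisense gene FBXW7-AS1 shares 127 of those bases (1.14%) on the opposite strand, and counting by strand is not stated in the sources used here, so reads there cannot be assigned. None of its 11514 transcript stretches of 75 bases occurs in another gene. The summed counts do not separate the isoforms. The 250 bases before the start of the outermost of the 4 FBXW7 promoter entries in RefSeq (GRCh38.p14, minus strand, chr4:152536093-152536342) are printed as the upstream sequence of the member that rose, 5' to 3', with GC boxes (GGGCGG or its complement CCGCCC) in capitals.
FBXW7: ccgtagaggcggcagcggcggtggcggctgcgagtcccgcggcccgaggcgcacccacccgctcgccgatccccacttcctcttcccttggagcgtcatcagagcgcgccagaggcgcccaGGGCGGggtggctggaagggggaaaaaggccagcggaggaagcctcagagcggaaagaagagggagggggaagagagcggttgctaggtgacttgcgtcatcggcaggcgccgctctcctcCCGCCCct
This stretch holds 2 GC boxes, a motif found in 42.6% of all promoter stretches of that length. No CACGTG was present in any of the 4 FBXW7 entries when read over 300 bases (250 before to 50 after the start).

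Of 18 listed ubiquitin ligases and deubiquitinases of c-Myc 5 were in the table, FBXW7 among them, with 4 higher and 1 lower after OGT depletion. Besides FBXW7, 3 were higher and 1 was lower, where 52.2% of all genes tested were higher. The 5 genes had a median log2 fold change of 1.60. The median over all genes tested, 1.05, lies at the edge left by the selection of the table and is no baseline for it. BTRC, an F-box protein that ubiquitinates c-Myc through SCF, stood at 273, 311 and 268 normalized counts in Scramble and 1099, 1216 and 1127 in shOGT libraries (log2 fold change 2.01, SE 0.10). What its ubiquitination does to the stability of c-Myc was not tested. FBXO32 (atrogin-1), an F-box protein best known from muscle wasting, stood at 331, 327 and 317 and at 1218, 1290 and 1376 (1.99, SE 0.10). For both, every shOGT library was more than 3 times the highest control. FBXO28, whose ligase modifies c-Myc without causing its degradation, rose from 952, 1164 and 1092 to 2880, 3389 and 3445 (1.60, SE 0.10). USP13, a deubiquitinase, was the exception, at 571, 514 and 574 in Scramble and 153, 157 and 138 in shOGT libraries (-1.88, SE 0.12). The groups of none of these genes overlapped, which was so for 5641 of the 5671 genes tested. The other listed genes were not analysed here, among them MAGI3, HUWE1, TRIM32 and USP28. The study names MAGI3 as a main ligase of c-Myc in colorectal cancer. In HT-29 cells it saw no apparent change in c-Myc binding to FBXW7 when a drug inhibited OGT.

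**Figure D3:**
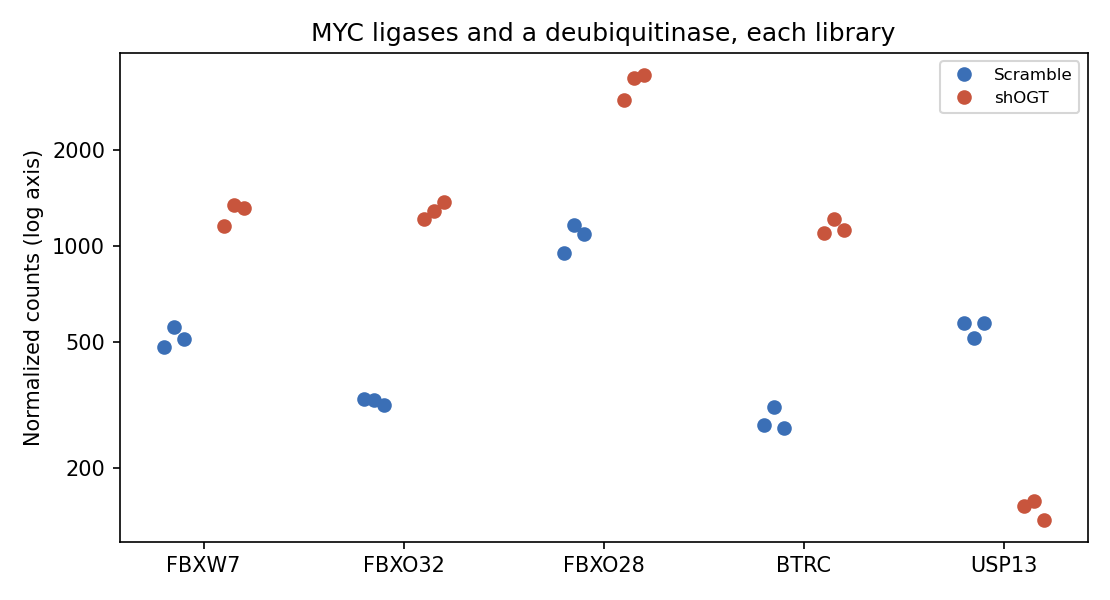
Normalized counts on a log axis of the 5 table genes listed as ubiquitin ligases or deubiquitinases of c-Myc, with each point a library (blue Scramble, red shOGT, 3 each). FBXW7, FBXO32, FBXO28 and BTRC lie higher in all shOGT libraries and USP13 lies lower in all of them.

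The core of the SCF ligase and the enzymes that prepare the phosphodegron did not move one way. Of 26 listed genes 6 were in the table, 2 higher and 4 lower, where 47.2% of all genes tested were lower. Their median log2 fold change was -1.26. SKP1, the subunit that ties every F-box protein to its cullin, rose from 1294, 1466 and 1441 normalized counts in Scramble to 3637, 3697 and 4007 in shOGT libraries (log2 fold change 1.43, SE 0.09). COPS2, a subunit of the COP9 signalosome that removes the cullin activator NEDD8, was higher (1.25, SE 0.11), and NAE1, a subunit of the enzyme that activates NEDD8, was lower (-1.35, SE 0.11). Both of these act on the same cullin modification from opposite sides. Among phosphodegron enzymes, GSK3A, a kinase that phosphorylates it, was lower (-1.18, SE 0.13). CDK2, a cell cycle kinase that also phosphorylates c-Myc, fell most, from 1204, 1268 and 1131 to 281, 289 and 298 (-2.05, SE 0.10). Under the median-of-ratios rescaling 1 of the 4 lower genes was still called.

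FBXW7 belongs to the F-box family, and 13 of 65 F-box genes were in the table. They were divided, 6 higher and 7 lower, near the split over all genes tested (52.2% higher and 47.2% lower). Their median log2 fold change was -1.19. BTRC, FBXO32, FBXO28 and FBXW7 itself were 4 of the 6 higher genes. The largest increase was that of FBXL2, at 10.6, 9.01 and 4.60 normalized counts in Scramble and 21.1, 48.2 and 48.9 in shOGT libraries (log2 fold change 2.12, SE 0.43), a gene of few reads. FBXO4, an F-box protein linked to cyclin D1 turnover, fell from 148, 199 and 209 to 38.9, 45.0 and 39.8 (-2.13, SE 0.21). With the median-of-ratios rescaling 2 of the 7 lower genes were still called.

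Of 32 listed genes that encode proteins marked for degradation by FBXW7, c-Myc aside, 13 were in the table of selected genes. Of these 10 were lower and 3 higher, where 47.2% of all genes tested were lower. Their median log2 fold change was -1.44. NFKB2, the NF-kB subunit precursor, fell from 1714, 1581 and 1611 normalized counts to 449, 408 and 437 (log2 fold change -1.92, SE 0.09). MYB, a transcription factor of progenitor cells, stood at 225, 224 and 227 in Scramble and 51.6, 54.6 and 76.3 in shOGT libraries (-1.90, SE 0.19). All control values of MYB were nearly the same. GATA2 (-1.69, SE 0.13) and SREBF2, the regulator of cholesterol synthesis (-1.68, SE 0.09), were lower too. The 3 higher substrates, chosen for mention after their values were seen, were PPARGC1A (1.37, SE 0.20), JUN (1.21, SE 0.10) and RICTOR (1.09, SE 0.11). Under the median-of-ratios rescaling 2 of the 10 lower genes remained past the thresholds, and none changed sign.

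c-Myc works within a network of MAX-binding proteins and chromatin cofactors, in which 7 of 26 listed genes were in the table. Of these 5 were lower and 2 higher (median log2 fold change -1.47), where 47.2% of all genes tested were lower. MXD3, a MAX partner that represses E-box genes, fell from 206, 147 and 156 normalized counts to 31.6, 6.43 and 30.7 (log2 fold change -3.09, SE 0.45, and -2.39 without library shOGT 5). MNT, another repressive MAX partner, fell from 520, 548 and 552 to 226, 184 and 175 (-1.47, SE 0.13). MYCL, a paralog of MYC, stood at 87.8, 55.9 and 46.9 in Scramble and 13.7, 12.9 and 13.7 in shOGT libraries (-2.11, SE 0.32). Both a MYC paralog and repressive partners were thus lower. ACTL6A, a subunit of chromatin complexes that c-Myc recruits, fell from 1690, 1987 and 1983 to 544, 557 and 575 (-1.75, SE 0.10). The 2 higher genes, chosen for mention after their values were seen, were PIM1, a kinase that cooperates with c-Myc (1.23, SE 0.13), and HCFC1, a chromatin cofactor that OGT cleaves and modifies (1.17, SE 0.09). The median-of-ratios rescaling left 3 of the 5 lower genes past the thresholds.

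The listed genes that act upstream on MYC transcription or on its mRNA were split, 4 higher and 3 lower among 7 of 31 in the table. Their median log2 fold change was 1.14, and 52.2% of all genes tested were higher. TCF7, a transcription factor of the Wnt pathway that drives MYC in colon cancer, fell from 1617, 1577 and 1557 normalized counts to 373, 331 and 311 (log2 fold change -2.23, SE 0.10). E2F1, an activator of MYC, fell from 1111, 1031 and 965 to 348, 299 and 275 (-1.75, SE 0.11). In both genes the shOGT libraries lay well below the controls. IGF2BP1, an RNA-binding protein that shields MYC mRNA, had at most 1 read in a Scramble library and 28 to 34 in shOGT libraries, at least 12.5-fold higher when controls are set to a floor of 3 reads per library. The list median was still 1.14 with IGF2BP1 at that bound. The other 3 higher genes, named after their values were seen, were CTNNB1, which encodes beta-catenin (1.34, SE 0.09), the Mediator kinase CDK8 (1.22, SE 0.09) and APC, a brake on beta-catenin (1.14, SE 0.10).

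Of 58 listed genes that c-Myc is known to activate, 18 were in the table of genes already selected as changed, 17 of them lower and 1 higher in OGT-depleted cells, with a median log2 fold change of -1.64, where 47.2% of all genes tested were lower. PDK2, a kinase that switches off pyruvate dehydrogenase and the target the study followed, fell most, from 363, 269 and 279 normalized counts in Scramble to 20, 41.8 and 19.3 in shOGT libraries (log2 fold change -3.52, SE 0.28). DNPH1, a nucleotide hydrolase, fell from 344, 192 and 217 to 42.1, 46.1 and 29.6 (-2.62, SE 0.25). These groups lay far apart. SRM, the spermidine synthase, stood at 1015, 1110 and 1084 in Scramble and 215, 156 and 190 in shOGT libraries (-2.52, SE 0.13). SLC7A5, an amino acid transporter, fell from 19345, 18624 and 17456 to 4214, 4148 and 4520 (-2.10, SE 0.08). PKM, which encodes pyruvate kinase, was the exception (1.07, SE 0.09). The list was written with earlier results of these data known, so the share of lower genes is a description. The study took PDK2 from these samples and reported PFKM, also on the list, lower by quantitative PCR after OGT depletion. The presence of either on the list is not independent evidence of direction. After the median-of-ratios rescaling 7 of the 17 lower genes were called, and none changed sign.

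The E-box CACGTG reads the same on both strands. It occurred in 7.26% of 35116 RefSeq promoter entries of 300 bases (250 before to 50 after the start), and at gene level in 8.77% of 27305 genes and in 12.2% of 3364 table genes with an entry. Of the 18 table targets 14 had an entry, and 8 of those held the motif. The list was drawn from known c-Myc targets, for which E-boxes are part of what is known, so this share is a description. For the 4 targets with the largest decreases, 30 bases around the motif are printed on the gene's own strand (GRCh38.p14), to show the sequence that c-Myc and MAX recognise, with the E-box in capitals. The windows are chr17:50095210-50095239 (plus strand, E-box starting at -129 from the start of transcription) for PDK2, chr6:43229493-43229522 (minus strand, -29) for DNPH1, chr1:11060200-11060229 (minus strand, -199) for SRM and chr16:87869620-87869649 (minus strand, -130) for SLC7A5.
PDK2: cccgggggaagcCACGTGccggggcggaag
DNPH1: gccgggcggggtCACGTGgccgcgggctgg
SRM: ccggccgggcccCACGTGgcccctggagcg
SLC7A5: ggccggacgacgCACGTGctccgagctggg
A match to these 6 letters is not evidence of binding in these cells. For PDK2 the study reported enrichment of ectopic c-Myc at the promoter in HT-29 cells by chromatin immunoprecipitation. The position it gives for its predicted c-Myc site differs from -129, and whether both are the same site was not tested.

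Genes that c-Myc is known to repress were divided, 7 higher and 5 lower among 12 of 23 in the table. Their median log2 fold change was 1.38, and 52.2% of all genes tested were higher. THBS1, an inhibitor of blood vessel growth, rose from 368, 386 and 376 normalized counts to 5269, 5399 and 5169 (log2 fold change 3.81, SE 0.08). CLU, the chaperone clusterin, rose from 55.9, 69.4 and 56.1 to 794, 839 and 793 (3.73, SE 0.14). Both were tightly grouped within each condition. GADD45B, a stress response gene, stood at 56.8, 51.4 and 31.3 in Scramble and 193, 192 and 159 in shOGT libraries (1.98, SE 0.24). PDGFRB, on the list as well as a fibroblast marker, was at least 5.09-fold higher by the same floor of 3 reads per library. RGS2, a regulator of G protein signalling, went the other way, from 1690, 2084 and 1941 to 345, 363 and 364 (-2.41, SE 0.10). The other 4 lower genes, named after their values were seen, were BTG1 (-1.97), NDRG2 (-1.36), CDKN2C (-1.29) and BTG2 (-1.06). Of the 5 lower genes 2 stayed past the thresholds under the median-of-ratios rescaling and 3 without library shOGT 5.

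**Figure D4:**
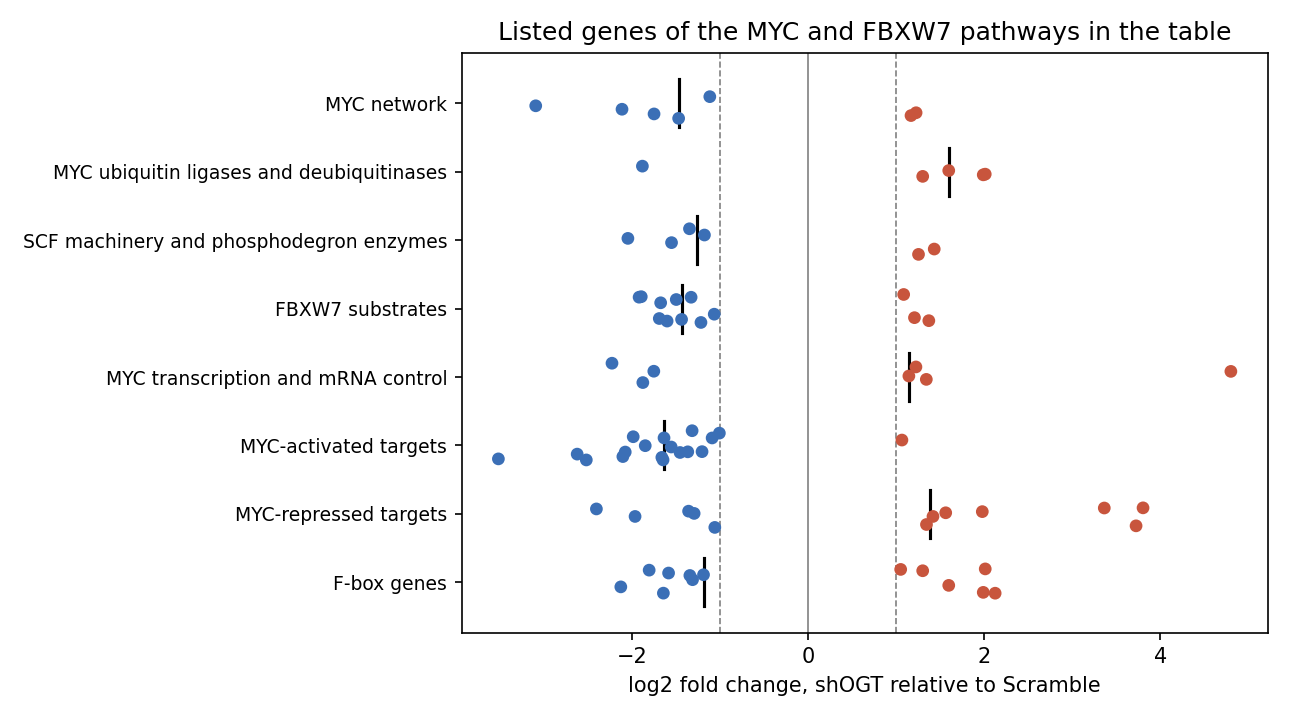
log2 fold change, shOGT relative to Scramble, of every table gene in each list around MYC and FBXW7 (blue lower, red higher), with the list median as a black bar and dashed lines at -1 and 1. The gap between the dashed lines reflects the selection of the table. Of the MYC-activated targets 17 of 18 lie to the left, with a median of -1.64, where 47.2% of all genes tested were lower. The point farthest right is IGF2BP1, a fitted value against controls with at most 1 read.

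The genes whose pattern over the 6 libraries came closest to each member were found by the root mean square difference of log2 values, each centred on its own mean, among 2907 genes with a mean of at least 100 normalized counts. Closest to MYC were VPS72 (0.0564), WASHC3 (0.0607), DDX12P (0.0657), C4BPA (0.0659) and CENPW (0.0748). DDX12P is a pseudogene with near-identical copies, so its value is uncertain. Their log2 fold changes lay between -1.15 (C4BPA) and -1.05 (DDX12P). Closest to FBXW7 were ARID4B (0.0314), RAB18 (0.0360), MINDY2 (0.0385), PPP4R3A (0.0386) and NABP1 (0.0414), with log2 fold changes from 1.24 (PPP4R3A) to 1.35 (RAB18). Fold changes near those of MYC and FBXW7 follow from this choice, since the distance includes the difference between the groups. Distances were smaller for FBXW7 than for MYC, whose shOGT values were more spread.

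Within 1000000 bases of FBXW7, 9 of 42 annotated genes were in the table, 8 higher and 1 lower, where 52.2% of all genes tested were higher. Whether position near FBXW7 bears on their direction was not tested. SH3D19, an adaptor protein gene, rose from 1735 ± 93.4 to 5425 ± 393 normalized counts (SD, n = 3 each, log2 fold change 1.64). FAM160A1 rose from 146 ± 15.4 to 645 ± 99.7 (2.13). The weaker transcripts FAM160A1-DT (2.11, and 1.52 without library Scramble 1), AC092611.1 (1.72), AC092611.2 (1.96), AC092611.3 (1.50) and TIGD4 (1.67) were also higher. TMEM131L was higher by 1.05, and by 0.97 without library shOGT 5. MND1, a meiotic recombination gene, was the lower one, at 160 ± 15.2 and 60.7 ± 21.4 (-1.44). Several of these genes lie together or overlap, as do AC092611.2 and AC092611.3, whose values are therefore uncertain.

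Near MYC, 4 of 25 annotated genes within 1000000 bases were in the table. CASC8, a long noncoding RNA whose start lies at -253 kb from that of MYC, rose from 23.4 ± 1.37 to 99.3 ± 10.3 normalized counts (log2 fold change 2.03, SE 0.25). TMEM75, 213 kb beyond the start and inside the span of PVT1, was higher by 3.43 (2.80 without library Scramble 1) on at most 7 reads in a control library, and without a stated strand its reads may include some from PVT1. RNU4-25P, a small nuclear RNA pseudogene 275 kb beyond it, was higher by 2.86 on at most 5 reads in a control library. POU5F1B, a copy of POU5F1 starting at -413 kb, was lower, at 17.7, 12.6 and 13.8 in Scramble and 4.21, 0 and 3.41 in shOGT libraries (-2.45, and -1.70 without library shOGT 5). Reads of POU5F1B can be shared with POU5F1, so its value is uncertain. CASC8, TMEM75 and RNU4-25P thus moved against MYC, each with fewer than 110 normalized counts in every library.

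**Figure D5:**
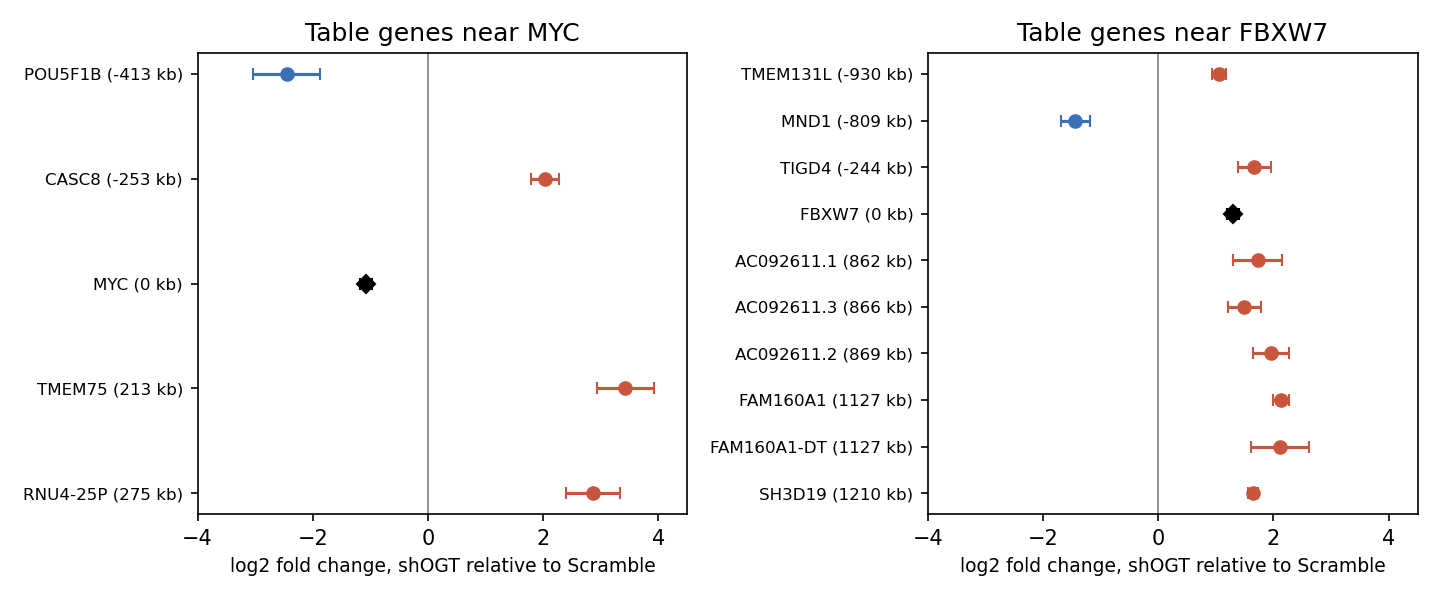
log2 fold change with its SE (bars), shOGT relative to Scramble, for table genes within 1000000 bases of MYC (left) and FBXW7 (right), ordered by the distance of their start from that of MYC or FBXW7 in kb along its strand. Near FBXW7 (black diamond, 1.30) 8 of 9 genes were higher, where 52.2% of all genes tested were higher. Near MYC (-1.07) CASC8, TMEM75 and RNU4-25P were higher and POU5F1B was lower.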

How the data were processed

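Poly(A) RNA of HT-29 cells was sequenced in 6 libraries with molecular identifiers, 3 Scramble and 3 shOGT, grouped by the labels' sample titles. The study's methods name another, strand-specific kit than the labels do. The deposited table gives normalized counts that the authors made by dividing reads per gene by a size factor (a signal per gene with no length correction). The size factors were 1.09 to 1.13 in Scramble and 0.879 to 0.950 in shOGT libraries. All values returned to whole reads within a tolerance of 0.02. The submitters' processing notes name cutadapt 1.9, HISAT2 2.0.4, UMI-tools, StringTie 1.3.4d, DESeq2 and edgeR, and the mouse build mm8, although all 5681 gene IDs and positions equal those of human GENCODE 29 (GRCh38). The log2 fold changes and adjusted p-values of their own comparison, which the authors deposited beside the counts, were read only to find how the table had been selected.

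limma 3.58.1 (R 4.3.3, trend method) was fitted to log2(value + 1) for the 5671 genes that reached a value of 1 in 3 or more libraries, with Benjamini-Hochberg adjustment over all of them. Fold changes are on that scale, which understates those of low genes. Other settings were rescaling by the median of ratios or summed reads, a pseudocount of 0.1, no filter, a mean of at least 5, an ordinary linear model per gene, 2 count tests on recovered reads (edgeR 4.0.16, DESeq2 1.42.0), and leaving out each library. The scripts were tested on simulated data.

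The members and all gene lists were chosen with earlier results of these data known. The text names MYC, FBXW7, OGT, the 4 most changed table genes per list whose mean reached 10 (all genes where a list had 6 or fewer), table genes within 1000000 bases, and the 5 nearest patterns. Some genes that this rule names are not reported here. Figures were drawn with matplotlib 3.10.9. Counting error alone is small for the members, whose lowest library value was 541 reads.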

Additional observations from a re-analysis of the deposited data

How the results depend on the processing

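The 5636 called genes became 4070 under the median-of-ratios rescaling, which moved the higher share of calls from 52.5% to 73.2% (2980 higher and 1090 lower), 5421 under scaling to summed reads, 5647 with a pseudocount of 0.1, 5646 without a filter, 5257 with a mean of at least 5, 5475 with an ordinary linear model, 5666 with edgeR, 5668 with DESeq2, and 5403 to 5543 with 1 library left out. The table holds selected genes only, so a median of ratios over it is centred on changed genes. The MYC log2 fold change was -0.35 under that rescaling, -0.99 under summed reads and -1.18 to -0.97 over left-out libraries, below the fold threshold only without shOGT 5. Under the median of ratios the lower genes numbered 3 in the MYC network, 1 among SCF genes, 2 among FBXW7 substrates, 7 among MYC-activated targets, 2 among MYC-repressed targets and 2 among F-box genes. MYC-repressed targets numbered 3 to 5 lower over left-out libraries. No result reversed. Of the 56 other named genes, 12 fell below the thresholds under the median of ratios, CENPW and DDX12P under summed reads, CENPW without Scramble 2, and DDX12P and TMEM131L without shOGT 5. No paired analysis was possible because the groups share no replicate number. With 3 libraries a group, exact tests cannot pass 0.05, and low-read neighbours such as RNU4-25P and TMEM75 are limited by depth.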
